A study of Mus musculus with 5 samples.

Results

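The annexin genes examined were the 8 rows of the count matrix named Anxa1, Anxa2, Anxa3, Anxa4, Anxa5, Anxa6, Anxa7 and Anxa11, chosen by name among 21995 genes. Their transcripts were read in CD11b+ Ly6G+ live cells sorted from 6 tissues (bone marrow, blood, intestine, liver, lung and spleen); the C57BL/6 donors were young or old mice at steady state under spf conditions. The young mice were 10 weeks old in the sample labels and 8 weeks old in the design text, the old mice were 20 months old, and no allele or treatment was added. The experiment was run 2 times, each time as 1 multiplexed BD Rhapsody cartridge, a microwell system that counts each captured mRNA as 1 unique molecular identifier (UMI), which gave the pools YO1 and YO2. Barcodes carried the pool but not tissue or age, so every comparison here is between classes of cells, with 1 sum of UMIs per class and pool.

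Annexins are cytosolic proteins that bind acidic phospholipids when calcium rises and so attach to the inner face of the plasma membrane and of vesicles. Anxa1 is the best studied of them in neutrophils, where the protein can be released and acts on formyl peptide receptors to limit further recruitment. Anxa2 pairs with the small calcium-binding protein S100a10, and Anxa1 and Anxa11 bind S100 proteins as well, so the level of one annexin is usually read together with the others and with their partners.

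After removal of barcodes with under 200 UMIs, under 100 genes or at least 20% mitochondrial UMIs, YO1 kept 19505 cells and YO2 kept 17215, and the median cell had 1231 and 1454 UMIs. The 8 genes took 155765 UMIs in YO1 (0.395% of all UMIs) and 117189 in YO2 (0.284%). Cells were placed in classes by their own marker UMIs. Cycling cells had at least 2 UMIs of Mki67 and Top2a, Ltf-high immature cells at least 5 of the granule gene Ltf, and Ngp-positive Ltf-low cells at least 10 of the granule gene Ngp. Mature cells had at least 2% of UMIs from S100a8 and S100a9 with under 3 of Ngp, an intermediate class had 3 to 9 of Ngp, and activated cells had at least 3 UMIs of Il1a, Icam1 and Nr4a3. YO1 and YO2 held 603 and 70 cycling cells, 1932 and 381 Ltf-high cells, 369 and 27 Ngp-positive Ltf-low cells, 484 and 52 intermediate cells, 9591 and 9377 mature cells, and 28 and 608 activated cells. Of the cell labels, 406 occurred in both pools.

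The gates of cycling and activated cells asked for no neutrophil gene. Levels are given as CPM, the UMIs of a gene scaled to a common total of UMIs per class and pool. The neutrophil receptor Csf3r stood at 1347 and 1310 CPM in activated cells of YO1 and YO2, against 2361 and 2512 CPM in mature cells. Ly6g, the gene of the sort marker, was at 52.5 and 10.5 CPM in activated cells and at 143 and 95.9 CPM in mature cells. The sum of 6 dendritic cell markers was 490 CPM in the 28 activated cells of YO1 with 1 marker at 0 and 48.5 CPM in YO2 with 1 at 0, against 7.74 and 5.77 CPM in mature cells with none at 0. In cycling cells the azurophil granule list, which marks the earliest granule stage, reached 3741 CPM in YO1 and 58.6 CPM in YO2, so the cycling cells of the pools were not alike. No doublet caller was run; cells with markers of another lineage beside neutrophil genes were left out as mixed, 1280 in YO1 and 657 in YO2. In sums over cells, fewer transcripts per cell and fewer cells with the transcript cannot be told apart.

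Annotated positions place the genes on 7 chromosomes of GRCm38, with Anxa1 on chromosome 19 (20373428 to 20390944, minus strand), Anxa2 on chromosome 9 (69453620 to 69491795, plus strand) and Anxa5 on chromosome 3 (36448923 to 36475894, minus strand); Anxa7 and Anxa11 share chromosome 14. RefSeq promoter windows of GRCm38.p6, from 250 bases before to 50 after the annotated start, were found for 6 of the 8 genes, 8 windows in all. Those of Anxa1 (chr19:20390622-20390921, minus strand), Anxa2 (chr9:69453433-69453732, plus strand) and Anxa5 (chr3:36475838-36476137, minus strand) are printed because these 3 genes lead in immature neutrophils, mature neutrophils and macrophages. They read 5′ to 3′, and capitals mark matches to the motifs searched on both strands.
Anxa1: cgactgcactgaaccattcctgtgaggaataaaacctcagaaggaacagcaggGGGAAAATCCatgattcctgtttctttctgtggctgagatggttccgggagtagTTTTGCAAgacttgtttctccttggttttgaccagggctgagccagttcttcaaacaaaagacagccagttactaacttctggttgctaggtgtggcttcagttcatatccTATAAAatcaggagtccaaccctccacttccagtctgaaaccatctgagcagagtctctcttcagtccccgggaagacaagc
Anxa2: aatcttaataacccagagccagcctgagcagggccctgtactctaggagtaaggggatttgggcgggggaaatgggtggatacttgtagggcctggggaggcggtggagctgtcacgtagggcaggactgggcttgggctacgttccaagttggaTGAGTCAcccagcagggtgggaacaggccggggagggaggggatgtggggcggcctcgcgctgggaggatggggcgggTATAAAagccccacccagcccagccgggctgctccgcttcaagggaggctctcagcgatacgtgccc
Anxa5: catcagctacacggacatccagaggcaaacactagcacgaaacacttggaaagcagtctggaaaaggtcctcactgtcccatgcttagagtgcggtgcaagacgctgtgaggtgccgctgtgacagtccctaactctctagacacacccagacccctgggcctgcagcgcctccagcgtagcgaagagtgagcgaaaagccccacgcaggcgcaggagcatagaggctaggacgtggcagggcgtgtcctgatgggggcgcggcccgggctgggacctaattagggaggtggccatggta
The capitals in Anxa1 are GGGAAAATCC, a match to the NF-kB form that 20.7% of 32851 windows hold, TTTTGCAA, a match on the minus strand to the C/EBP form TTGCNNAA held by 10.8%, and the TATA box letters TATAAA, held by 13.6%. Those in Anxa2 are TGAGTCA, a match to the AP-1 form TGANTCA that 7.81% hold, and the TATA box. The TATA box was found in these 2 of the 8 annexin windows, starting 32 bases before the Anxa1 start and 17 before the Anxa2 start. The Anxa5 window held none of the 7 forms, which were completed by GAGGAAGT (PU.1, 3.20%), the interferon-stimulated response element (3.44%) and the glucocorticoid receptor element (0.475%). GC content was 47.3% in the Anxa1 window, 63.7% in the Anxa2 window and 60.3% in the Anxa5 window, with 3, 13 and 16 CpG dinucleotides. A match describes the letters of the window and not a bound site.

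By UMI counts, the leading annexin changed from Anxa1 to Anxa2 over neutrophil maturation. Anxa1 had 2996 CPM in cycling cells of YO1, 4897 in Ltf-high, 2652 in Ngp-positive Ltf-low, 1909 in intermediate, 944 in mature and 385 in activated cells. In YO2 the same classes had 3565, 5563, 2254, 1686, 1057 and 195 CPM. Anxa1 therefore peaked in Ltf-high cells of both pools and had its lowest neutrophil level in activated cells. Anxa2 had 535 CPM in cycling cells of YO1, 1212 in Ltf-high, 2036 in Ngp-positive Ltf-low, 2062 in intermediate, 2073 in mature and 1400 in activated cells. In YO2 it had 652, 940, 1541, 1617, 1661 and 520 CPM. By CPM, Anxa2 differed little between Ngp-positive Ltf-low, intermediate and mature cells of each pool. In the tests given below, neither its step from Ltf-high to Ngp-positive Ltf-low cells nor its step from these to mature cells passed. Levels of different genes are compared here as UMI counts, which do not grow with the length of a gene. Whether the genes were captured and counted equally well was not tested. Which gene leads rests on that, while the change of a ratio between classes does not.

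**Figure D1:**
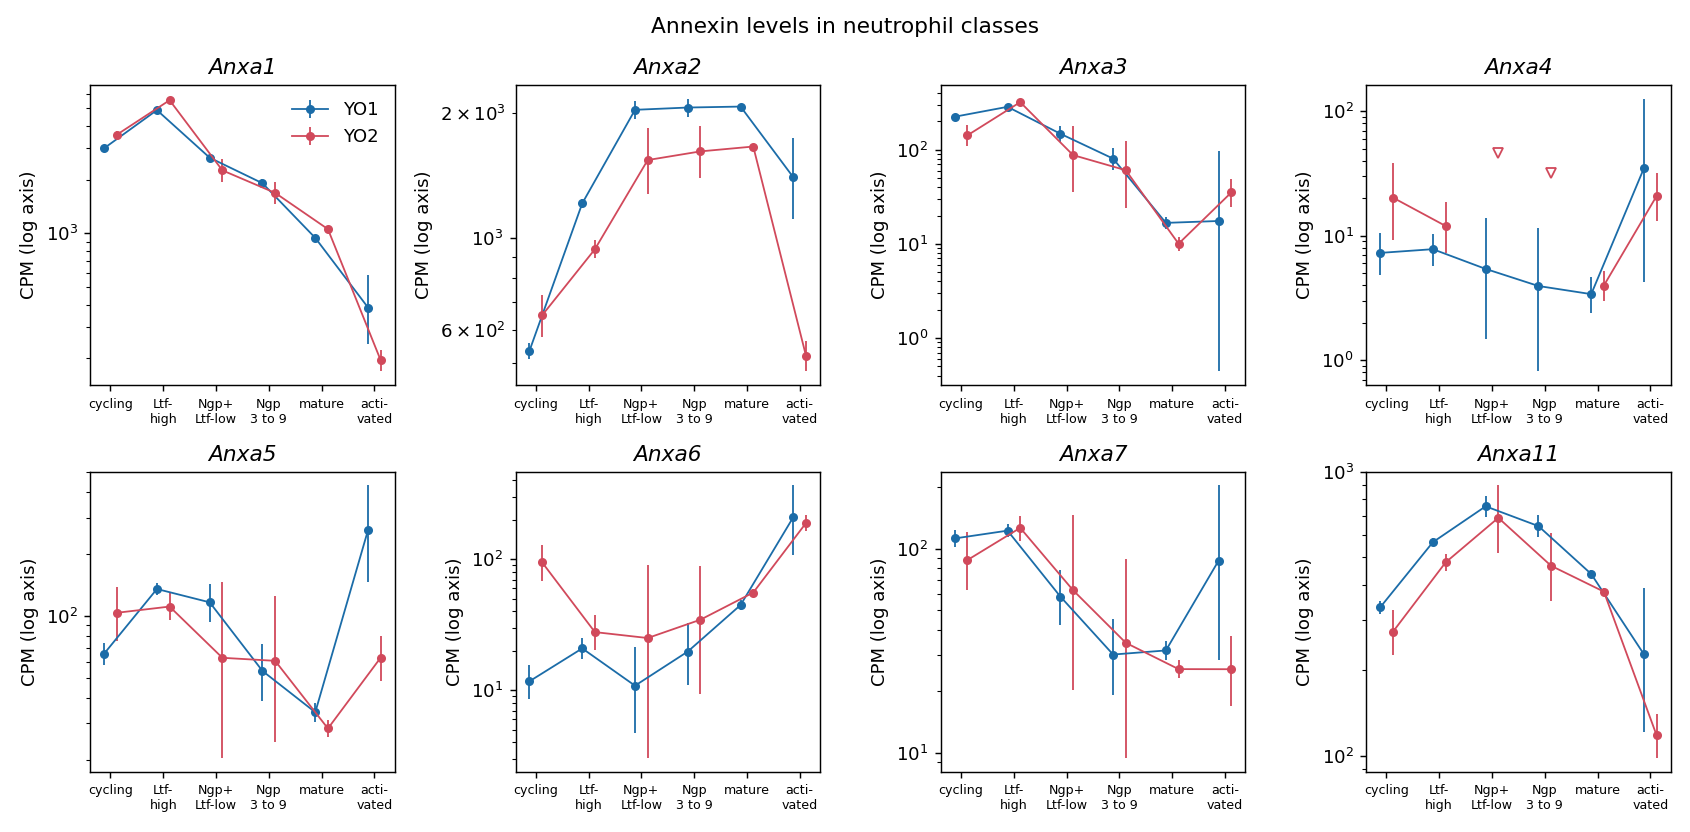
CPM of each annexin (log axis) in 6 neutrophil classes, in order of maturation with activated cells last, for YO1 and YO2; bars are 95% exact Poisson intervals, which cover counting error only, and open triangles are upper limits where no UMI was seen. Anxa1 ends at 385 and 195 CPM in activated cells, and Anxa2 runs flat from Ngp-positive Ltf-low to mature cells.

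The ratio of Anxa1 to Anxa2 UMIs does not depend on how libraries are scaled. It was 5.60 in cycling cells of YO1 (95% counting interval 5.34 to 5.87), 4.04 in Ltf-high (3.94 to 4.15), 1.30 in Ngp-positive Ltf-low (1.22 to 1.39), 0.926 in intermediate (0.861 to 0.995), 0.456 in mature (0.445 to 0.467) and 0.275 in activated cells (0.163 to 0.445). In YO2 it was 5.47 (4.82 to 6.22), 5.92 (5.60 to 6.26), 1.46 (1.16 to 1.86), 1.04 (0.849 to 1.28), 0.636 (0.623 to 0.650) and 0.375 (0.318 to 0.441). The step from Ltf-high to Ngp-positive Ltf-low cells was the largest one in each pool. In YO1 the ratio was under 1 from the intermediate class on. In YO2 it was 1.04 in that class, with an interval that spans 1, and under 1 in mature cells. Anxa1 made up 69.9% and 72.2% of the UMIs of the 8 genes in cycling cells of YO1 and YO2, 67.6% and 73.4% in Ltf-high, 45.9% and 47.8% in Ngp-positive Ltf-low, 39.7% and 42.6% in intermediate, 26.3% and 32.8% in mature and 14.7% and 16.7% in activated cells. In the few cycling cells of 1000 to 3000 UMIs, 26 in YO1 and 8 in YO2, Anxa1 made up 68.0% and 22.2%.

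The exchange was visible within single cells brought to the same depth. With every cell thinned to 1000 UMIs and shallower cells left out, 17.9% of 4897 mature cells of YO1 and 23.8% of 8275 of YO2 had more Anxa1 than Anxa2, against 85.9% of 1880 and 91.1% of 371 Ltf-high cells. Cells with more Anxa2 than Anxa1 made up 62.5% and 52.4% of mature cells, against 7.66% and 4.31% of Ltf-high cells. The thinning left out 4694 and 1102 mature cells and 52 and 10 Ltf-high cells. Many cells carried both transcripts: 45.2% and 43.9% of mature cells and 66.7% and 58.2% of Ltf-high cells. Cells with neither were 21.7% of 23 activated cells of YO1 and 61.5% of 585 of YO2, against 7.52% and 10.5% of mature cells. Before thinning, 53.6% and 65.0% of mature cells had an Anxa1 UMI, against 99.4% and 99.7% of Ltf-high cells, at median depths of 1005 and 1330 UMIs against 2921 and 4088.

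**Figure D2:**
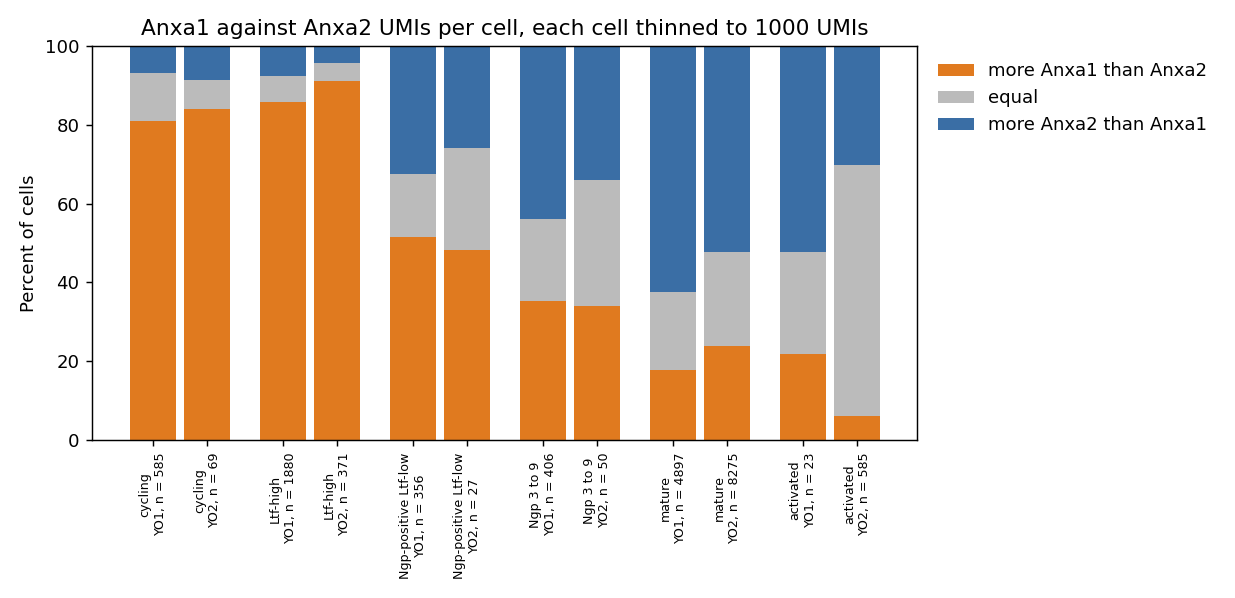
Percent of cells with more Anxa1 than Anxa2 UMIs, equal numbers (mostly neither gene in activated cells of YO2) or more Anxa2, after each cell was thinned to 1000 UMIs; n is the number of cells. Cells with more Anxa1 fall to 17.9% and 23.8% in mature cells, against 85.9% and 91.1% in Ltf-high cells.

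For the tests, the sums of UMIs were fitted with edgeR's quasi-likelihood test, with TMM scaling, the pool as a block and p-values adjusted over all genes tested by the Benjamini-Hochberg method. The sums of a class come from separate runs of the experiment. The block takes up the difference that all classes of a pool share. The p-values measure the spread between pools that remains, estimated over all classes of a fit together. The alternative called all UMIs here scaled by the total UMIs of the genes fitted, without the 108 genes used for gating. Used in place of TMM, it moved the changes of all genes together. The contrasts of Ltf-high with cycling cells, of mature with Ltf-high cells and of the lineages with mature cells were fitted on 11566 genes, and the contrasts with a class of fewer than 30 cells in a pool on 11212. The median log2 change of all genes was 0.31 with TMM and -0.16 with all UMIs for mature against Ltf-high cells, 0.85 and 0.28 for mature against Ngp-positive Ltf-low cells, and -0.33 and 0.22 for activated against mature cells. With DESeq2's size factors the share of calls that were higher was 37.0% for Ltf-high against cycling cells, 39.0% for mature against Ltf-high cells, 52% for Ngp-positive Ltf-low against Ltf-high cells, 29.1% for mature against Ngp-positive Ltf-low cells and 76.8% for activated against mature cells.

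In Ltf-high cells, the stage of secondary granule synthesis, 6 of the 8 annexins rose relative to cycling cells and 2 did not pass the test. Of all genes tested, 35.1% were called in this contrast and 18.1% were higher; the median log2 change was 1.18 over the 8 genes and 0.01 over all. Anxa11, which tethers RNA granules to lysosomes in other cell types, had 565 and 480 CPM in Ltf-high cells of YO1 and YO2, against 333 and 273 CPM in cycling cells. The Ltf-high values lay above the cycling values in both pools, with a log2 change of 1.31 ± 0.24 (SE) and adjusted p = 0.000127. Anxa2 changed by 1.36 ± 0.37 (adjusted p = 0.00521), Anxa1 by 1.19 ± 0.33 (0.00688) and Anxa3 by 1.19 ± 0.33 (0.00576), each the log2 change with its SE and edgeR adjusted p. Anxa5 changed by 1.17 and Anxa7 by 0.81. Scaled by all UMIs, only Anxa11 passed (0.84, adjusted p = 0.00208), and the other 5 had log2 changes between 0.35 for Anxa7 and 0.89 for Anxa2; the median of all genes then moved to -0.38, and 22.0% of calls were higher instead of 51.5%.

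Anxa6, which takes part in membrane repair and cholesterol transport, had 20.9 and 27.8 CPM in Ltf-high cells of YO1 and YO2, against 11.7 and 94.7 CPM in cycling cells. The pools went opposite ways, and the log2 change of 0.06 ± 0.50 did not pass (adjusted p = 0.982). In the cycling cells with at least 3 UMIs of neutrophil granule genes, 594 in YO1 and 57 in YO2, Anxa6 was at 9.44 and 25.6 CPM, and the log2 change of Ltf-high against these cells was 1.49 (adjusted p = 0.00239), which made 7 of 8 annexins higher. Without the YO1 cycling sum, 3 annexins passed, and Anxa6 was then lower by a log2 change of -1.42 (adjusted p = 0.0163). Without the cells that carried azurophil granule UMIs 6 annexins passed. Anxa4 had 7.81 and 12 CPM in Ltf-high cells and 7.29 and 20.3 CPM in cycling cells, and its change did not pass.

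Most annexins fell in mature cells relative to Ltf-high cells. Anxa1, Anxa3, Anxa4, Anxa5 and Anxa7 fell, Anxa2 and Anxa6 rose, and Anxa11 did not pass the test. Of all genes tested, 40.5% were called, 25.2% higher and 15.3% lower, with a median log2 change of 0.31 over all genes and -1.45 over the annexins. Anxa3, which is found on the granules of neutrophils, had 16.7 and 10.0 CPM in mature cells of YO1 and YO2, against 285 and 320 CPM in Ltf-high cells. Its log2 change of -4.27 ± 0.36 (adjusted p = 8.01e-10) was the largest of the family. Anxa1 changed by -2.14 ± 0.34 (adjusted p = 1.51e-05), Anxa7, a membrane-fusion annexin, by -1.88 ± 0.20 (5.15e-08) and Anxa5, the phosphatidylserine-binding protein used to stain dying cells, by -1.76 ± 0.30 (3.38e-05). These 4 changes passed with TMM and with all UMIs. Anxa7 was at 31.7 and 25.7 CPM in mature cells, against 123 and 126 CPM in Ltf-high cells, and Anxa5 at 34.0 and 28.4 CPM against 135 and 111 CPM. No value of a mature sum reached that of a Ltf-high sum for any of these 4 genes. With 2 sums on each side this can be common, and the share of all genes that separate in this way was not counted.

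The calls of Anxa2 and Anxa6 as higher rested on the scaling. By CPM, which divides by the UMIs of every gene, the log2 ratios of CPM + 1 in YO1 and YO2 were 0.774 and 0.820 for Anxa2. They were 1.065 and 0.977 for Anxa6 and -0.372 and -0.341 for Anxa11. Anxa2 changed by 1.04 ± 0.36 with TMM (adjusted p = 0.022) and by 0.51 with all UMIs (0.345), and Anxa6 by 1.30 ± 0.41 (0.0133) and by 0.79 (0.196). Anxa6 had 44.8 and 55.7 CPM in mature cells, against 20.9 and 27.8 CPM in Ltf-high cells, so that the groups did not overlap. Anxa11 had 437 and 379 CPM in mature cells and 565 and 480 CPM in Ltf-high cells; its change was -0.12 with TMM (adjusted p = 0.708) and -0.64 with all UMIs (0.0105). With all UMIs, 33.8% of calls over all genes were higher, against 62.3% with TMM. Anxa4 changed by -1.14 ± 0.38 (adjusted p = 0.0184) from 36 and 56 UMIs in mature cells and 46 and 19 in Ltf-high cells. Without the pool as a block Anxa2 (1.03, adjusted p = 0.0606) and Anxa4 (-1.08, 0.0721) no longer passed, and with any single mature or Ltf-high sum left out 4 to 5 annexins passed, Anxa2 and Anxa4 not among them.

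**Figure D3:**
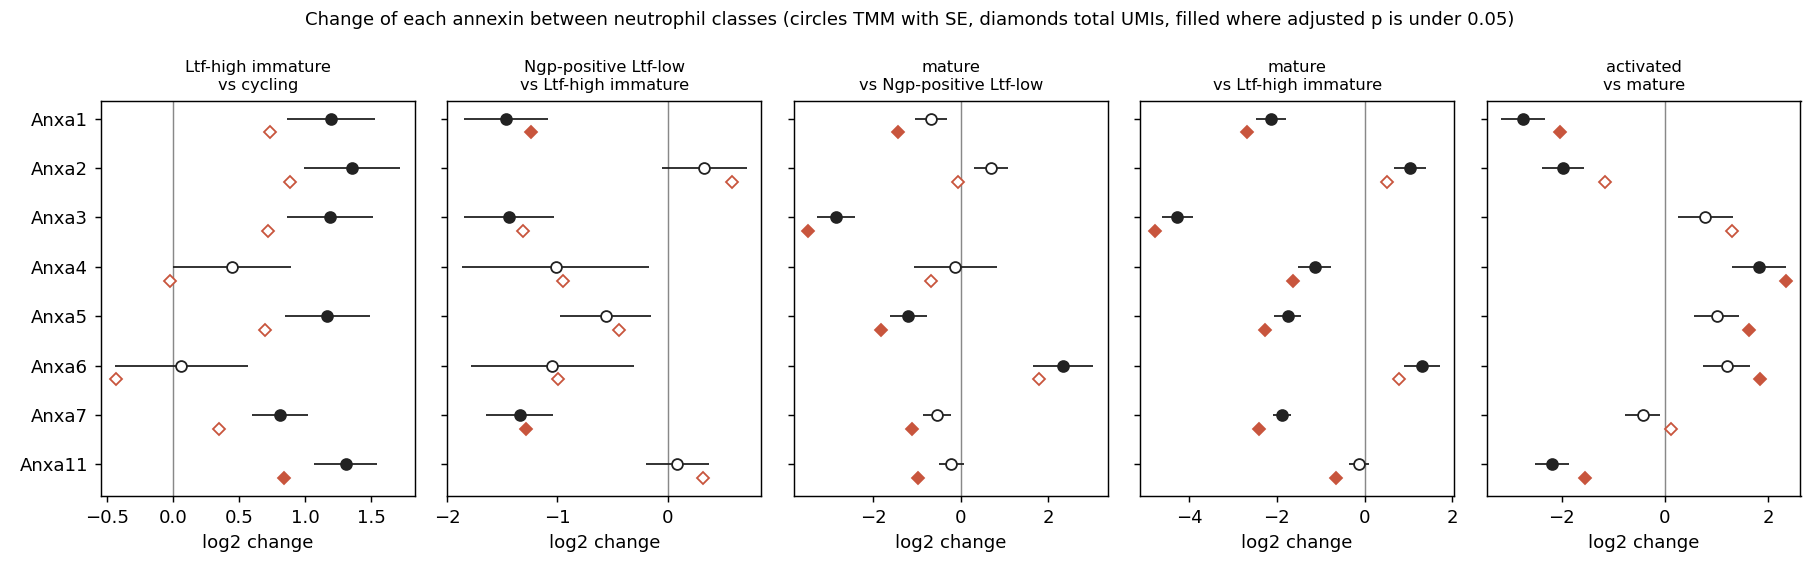
Log2 change of each annexin in 5 contrasts of neutrophil classes. Circles are edgeR estimates with TMM scaling and bars 1 SE. Diamonds are the estimates with all UMIs of the genes fitted, and filled symbols have an adjusted p under 0.05. Anxa3 lies farthest to the left for mature against Ltf-high cells, at -4.27, and Anxa2 and Anxa6 are filled there with TMM only.

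The Ngp-positive Ltf-low cells lie between these ends. Relative to Ltf-high cells, Anxa1 (log2 change -1.47 ± 0.38, adjusted p = 0.0248), Anxa3 (-1.44 ± 0.41, 0.0434) and Anxa7 (-1.34 ± 0.30, 0.00976) fell and the other 5 annexins did not pass; 3.8% of all genes were called and 3.09% lower, with a median of -0.41 over all genes and -1.03 over the annexins. Anxa2 had 2036 and 1541 CPM in Ngp-positive Ltf-low cells of YO1 and YO2, against 1212 and 940 CPM in Ltf-high cells, and its log2 change of 0.33 ± 0.39 with TMM did not pass (adjusted p = 0.74). Anxa11 had 756 and 689 CPM, its highest level of any class in both pools, against 565 and 480 CPM in Ltf-high cells, with a change of 0.09 ± 0.29. With all UMIs, 29.9% of calls over all genes were higher, against 18.5% with TMM, and Anxa3 no longer passed (-1.31, adjusted p = 0.0662). Without the pool as a block 1 annexin passed, Anxa7. Without either Ngp-positive Ltf-low sum, either Ltf-high sum or the dendritic cell class 1 annexin passed as well; the YO2 sum of Ngp-positive Ltf-low cells held 27 cells and 79843 UMIs.

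In mature cells relative to Ngp-positive Ltf-low cells, Anxa3 (log2 change -2.84 ± 0.43, adjusted p = 4.54e-05) and Anxa5 (-1.19 ± 0.42, 0.0459) fell and Anxa6 rose (2.34 ± 0.68, 0.0174). Of all genes, 17.3% were called, 15.1% higher and 2.19% lower, with a median of 0.85 over all genes and -0.38 over the annexins. Anxa6 had 44.8 and 55.7 CPM in mature cells, against 10.8 and 25.0 CPM in Ngp-positive Ltf-low cells, which rested on 8 and 2 UMIs in the Ngp-positive Ltf-low cells. With all UMIs, Anxa6 changed by 1.79 (adjusted p = 0.23) and did not pass, and Anxa1 (-1.43, 0.0111), Anxa3 (-3.48), Anxa5 (-1.82), Anxa7 (-1.11) and Anxa11 (-0.96) were lower, with 44.2% of calls over all genes higher against 87.4% with TMM. Anxa5 no longer passed without the pool as a block (adjusted p = 0.0639), with cells up to 6000 UMIs (0.0592), without either mature sum (0.159 and 0.183) or without either Ltf-high sum (0.0633 and 0.0635). Anxa2 changed by 0.70 with TMM and by -0.07 with all UMIs and passed with neither. Without the YO1 sum of Ngp-positive Ltf-low cells 0 annexins passed in edgeR and 1 had an unadjusted p under 0.05, and without the dendritic cell class 5 did.

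Activated cells, whose gate set no limit on S100a8 and S100a9, had less Anxa1, Anxa2 and Anxa11 and more Anxa4 than mature cells. The median share of S100a8 and S100a9 was 2.14% and 0.543% of UMIs in activated cells of YO1 and YO2. In mature cells it was 6.22% and 5.09%, and the part of this difference in the changes was not tested. In this contrast 23.8% of all genes were called, 7.91% higher and 15.9% lower, with a median log2 change of -0.33 over all genes and 0.17 over the annexins. Anxa1 had 385 and 195 CPM in activated cells of YO1 and YO2, against 944 and 1057 CPM in mature cells, a log2 change of -2.75 ± 0.42 (adjusted p = 2.15e-05). Anxa11 had 228 and 118 CPM in activated cells, against 437 and 379 CPM in mature cells, a change of -2.19 ± 0.33 (1.73e-05). Both passed with all UMIs too, at -2.03 and -1.55. Anxa2 had 1400 and 520 CPM in activated cells, against 2073 and 1661 CPM, a change of -1.98 ± 0.41 (adjusted p = 0.000617) that was -1.16 with all UMIs (0.0608). All 8 genes together stood at 2624 and 1167 CPM in activated cells, against 3585 and 3219 CPM in mature cells.

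Anxa4 had 35.0 and 20.9 CPM in activated cells, from 2 and 22 UMIs, against 3.40 and 3.99 CPM in mature cells, a log2 change of 1.82 ± 0.52 (adjusted p = 0.0108). The 2 UMIs of YO1 give a 95% counting interval of 4.24 to 126 CPM. It no longer passed without the YO2 activated sum (2.26, adjusted p = 0.462), without the YO2 mature sum (1.71, 0.0622) or without cells over 6000 UMIs (1.21, 0.174). Anxa6 had 210 and 189 CPM in activated cells, from 12 and 199 UMIs, against 44.8 and 55.7 CPM in mature cells. Its change of 1.20 ± 0.45 had an adjusted p of 0.0512, and with all UMIs it was 1.85 (0.00817). Anxa5 had 262 and 62.8 CPM, against 34.0 and 28.4 CPM, and passed with all UMIs only (1.64, adjusted p = 0.00664). The 6 dendritic cell markers were higher too, at 490 and 48.5 CPM in activated cells, against 7.74 and 5.77 CPM in mature cells, and dendritic cells themselves had 83.1 and 85.6 CPM of Anxa4, 321 and 294 CPM of Anxa5 and 402 and 487 CPM of Anxa6. Their part in the activated values was not tested. With all UMIs 70.1% of calls over all genes were higher, against 33.3% with TMM. The stricter lineage gate of 5 UMIs from 3 genes gave 7 annexins called, 4 higher and 3 lower.

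Among the 608 activated cells of YO2, the gate on S100a8 and S100a9 separated levels of Anxa1. The 109 cells with at least 2% of UMIs from these genes had 553 CPM of Anxa1, 780 of Anxa2, 141 of Anxa6 and 213 of Anxa11. The 499 cells below 2% had 99.9 CPM of Anxa1, 451 of Anxa2, 202 of Anxa6 and 92.7 of Anxa11. B cells of YO2 had 147 CPM of Anxa1, which is not told apart from background, as described below. The Anxa1 level of the activated cells below 2% is therefore not told apart from background either. These are cells of 1 library and carry no test.

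Within mature cells the level of Anxa6 was lower where the share of S100a8 and S100a9 was higher. Anxa6 stood at 89.7 CPM in mature cells of YO1 with 2 to 4% of UMIs from S100a8 and S100a9, at 50.5 with 4 to 6%, at 31.5 with 6 to 9% and at 16.2 with 9% or more. In YO2 the same bins had 87.8, 52.4, 32.4 and 24.4 CPM. Anxa1 moved the other way and less, at 824, 943, 930 and 1074 CPM in YO1 and 966, 1073, 1101 and 1201 CPM in YO2. Cells that fell into no class but had at least 3 UMIs of Csf3r and Cxcr2, 1026 in YO1 and 2463 in YO2, had 126 and 154 CPM of Anxa6. Mature cells with interferon-induced genes, 535 and 845 in number, had 27.7% and 33.6% of annexin UMIs from Anxa1 and 58.0% and 51.8% from Anxa2, against 26.3% and 32.8% and 57.8% and 51.6% in all mature cells. A falling share of S100a8 and S100a9 raises the share of every other gene, and its part in the Anxa6 values was not tested.

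Other lineages that passed the sort differed from mature neutrophils in the levels of the annexins. Anxa11 was lower than in mature neutrophils in all 10 lineages tested, with TMM and with all UMIs. Anxa1 and Anxa2 were lower in 10 of 10 with TMM and in 9 and 8 of 10 with all UMIs. Anxa4 was higher in 8 and Anxa5 in 7 of 10 with TMM, and in 9 and 10 with all UMIs; neither was lower in any. Of 80 tests, 29 were higher and 34 lower with TMM, and 38 were higher and 28 lower with all UMIs. In classical monocytes 5 annexins were higher and 3 lower and in plasma cells 4 and 4, with either scaling. In B cells 0 were higher and 4 lower with TMM, against 4 higher and 3 lower with all UMIs. The shares of all genes called are given with TMM only, and only the TMM counts stand against them. They were 61.1% in B cells, 62.6% in plasma cells, 49.1% in T and NK cells and 65.1% in classical monocytes. Nonclassical monocytes had 53.7%, macrophages 63.5%, alveolar macrophages 71.5%, basophils and mast cells 38.8%, dendritic cells 63% and endothelial cells 64.4%. Genes called higher made up 30% in B cells, 32.1% in plasma cells, 22% in T and NK cells, 32.3% in classical monocytes, 23.9% in nonclassical monocytes, 31.6% in macrophages, 36.3% in alveolar macrophages, 14.6% in basophils and mast cells, 30.8% in dendritic cells and 33.5% in endothelial cells. Those called lower made up, in the same order, 31.1%, 30.5%, 27.1%, 32.8%, 29.7%, 31.8%, 35.2%, 24.2%, 32.1% and 30.9%. With all UMIs, 72.1% to 77.7% of the calls over all genes were higher in 9 of the lineages, against 37.7% to 52.0% with TMM; plasma cells had 47.1% against 51.3%.

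**Figure D4:**
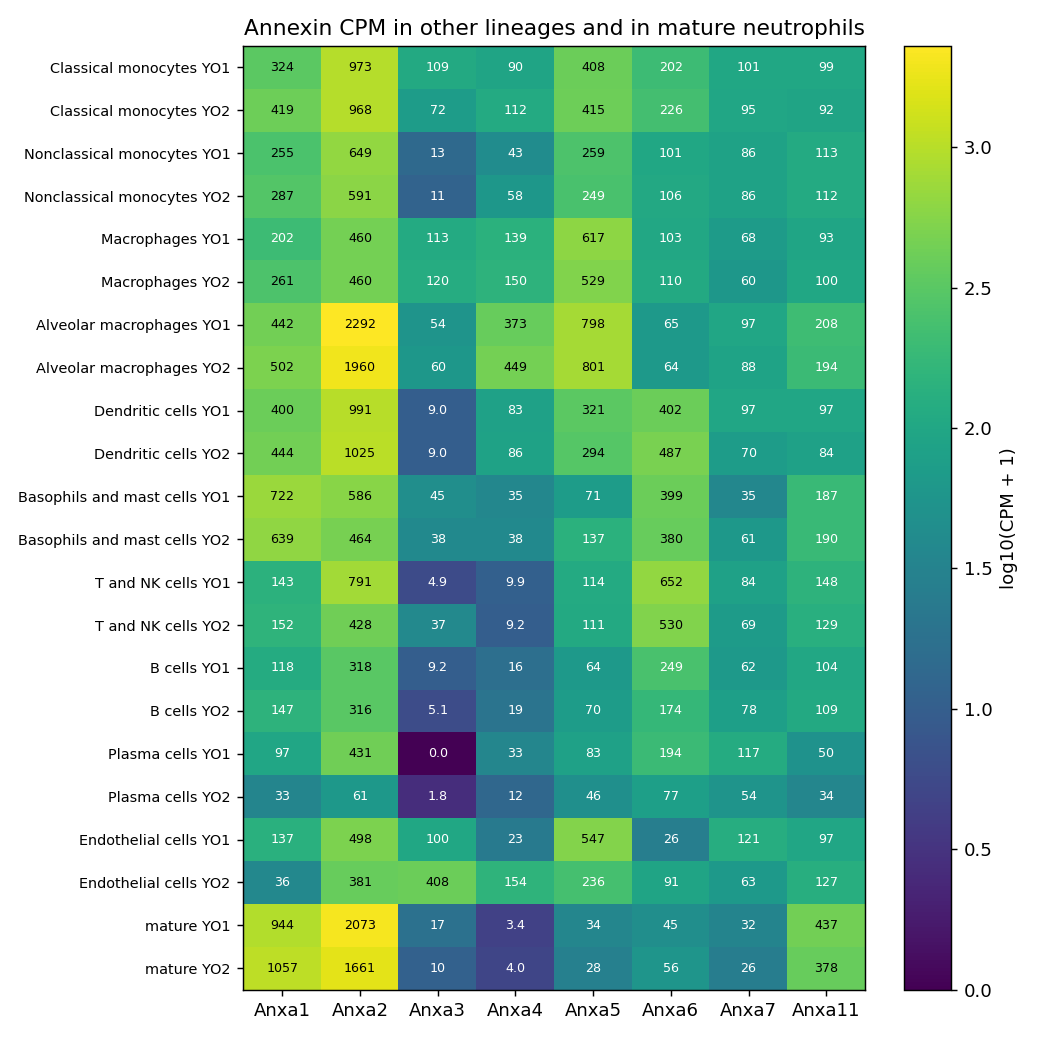
CPM of the 8 annexins in 10 other lineages and, in the bottom rows, mature neutrophils of each pool; colour is log10 of CPM + 1 and the printed number is the CPM. Anxa4 and Anxa5 are brightest in alveolar macrophages (373 and 449 CPM, 798 and 801 CPM) and Anxa6 in T and NK cells (652 and 530 CPM).

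By the mean of the pools, Anxa5 and Anxa4 were highest in alveolar macrophages, macrophages and classical monocytes. Anxa5 had 798 and 801 CPM in alveolar macrophages of YO1 and YO2, against 34.0 and 28.4 CPM in mature neutrophils, a log2 change of 3.66 ± 0.32 (adjusted p = 1.6e-10). It had 617 and 529 CPM in macrophages and 408 and 415 CPM in classical monocytes, each above every neutrophil class. Anxa4 had 373 and 449 CPM in alveolar macrophages, against 3.40 and 3.99 CPM in mature neutrophils, a change of 5.76 ± 0.32 (1.06e-13) that was the largest of any member in any lineage. Alveolar macrophages also had 2292 and 1960 CPM of Anxa2, against 2073 and 1661 CPM in mature neutrophils, which overlap; the change was -0.84 with TMM (adjusted p = 0.0386) and 0.12 with all UMIs (0.808), so its sign depended on the scaling. Classical monocytes had 324 and 419 CPM of Anxa1, against 944 and 1057 CPM in mature neutrophils, and an Anxa1 to Anxa2 ratio of 0.333 and 0.433.

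Of the 10 lineages tested, T and NK cells and dendritic cells had the highest Anxa6. Eosinophils, 215 and 12 cells and not tested, had 460.5 and 423 CPM of Anxa6 (95% counting intervals 372 to 564 and 137 to 987 CPM). T and NK cells had 652 and 530 CPM of Anxa6, against 44.8 and 55.7 CPM in mature neutrophils, a log2 change of 2.30 ± 0.40 (adjusted p = 3.57e-05). Dendritic cells had 402 and 487 CPM (2.17 ± 0.39, adjusted p = 2.84e-05) and basophils and mast cells 399 and 380 CPM (1.76 ± 0.43, 0.00172). B cells had 249 and 174 CPM, and their change was 0.87 with TMM (adjusted p = 0.0588) and 1.99 with all UMIs (0.000543), so that the call depended on the scaling. Basophils and mast cells were the one other lineage in which Anxa1 exceeded Anxa2 in both pools, at 722 and 639 CPM of Anxa1 and a ratio of 1.23 (95% counting interval 0.958 to 1.59) and 1.38 (0.979 to 1.95), intervals that span 1. Endothelial cells had 99.6 and 408 CPM of Anxa3, against 16.7 and 10.0 CPM in mature neutrophils (2.51 ± 0.39, adjusted p = 4.43e-06); the pools, with 625 and 50 endothelial cells, did not give the same level, and in YO1 macrophages (113 CPM) and classical monocytes (109 CPM) had more.

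**Figure D5:**
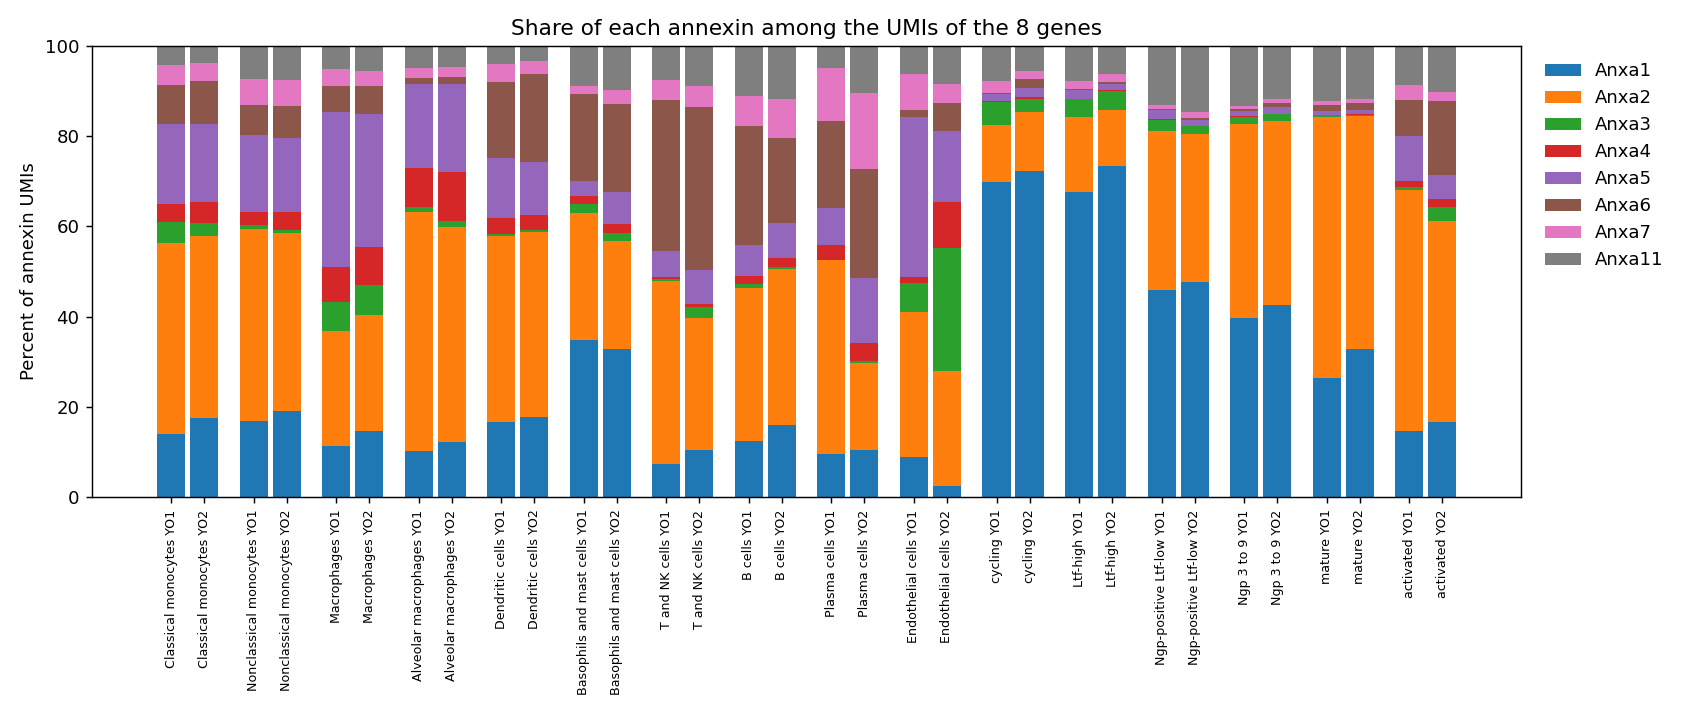
Percent of the UMIs of the 8 annexins taken by each gene, for 10 other lineages and, to their right, 6 neutrophil classes, in YO1 and YO2. Anxa1 takes 26.3% and 32.8% in mature cells, against 69.9% and 72.2% in cycling cells, and Anxa5 and Anxa6 widen in the other lineages.

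Free RNA in the cartridge can add neutrophil transcripts to other cells. B cells had 118 and 147 CPM of Anxa1, which is 12.4% and 13.9% of the mature level, while the neutrophil receptors Csf3r and Cxcr2 reached 9.37% and 8.06% of it in YO1 and 13.8% and 11.4% in YO2. Brought to 1000 UMIs, 6.06% and 9.21% of B cells had an Anxa1 UMI, against 53.2% and 55.4% of mature cells, at median depths of 1246 and 1882 UMIs for B cells and 1005 and 1330 for mature cells. Anxa1 in B cells is therefore not told apart from background. Anxa6 went the other way, with a UMI in 20.7% and 15.7% of thinned B cells against 3.90% and 4.62% of thinned mature cells.

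Classes with at least 20 cells in each pool were ordered by mean CPM over the pools. The Anxa1 levels ran from Ltf-high (5230 ± 471, SD of 2 pools) through cycling (3280 ± 402), Ngp-positive Ltf-low, intermediate and mature cells to basophils and mast cells. Pools of neighbours did not overlap down to that point. From alveolar macrophages to nonclassical monocytes neighbours overlapped, activated cells among them. The Anxa2 order began with alveolar macrophages, mature, intermediate and Ngp-positive Ltf-low cells, which overlapped throughout. The Anxa11 order began with Ngp-positive Ltf-low cells (723 CPM) and went on with intermediate, Ltf-high, mature and cycling cells, while activated cells stood eighth at 173 CPM. In the Anxa5 order mature cells came last at 31.2 CPM, and in the Anxa7 order also, at 28.7 CPM. Anxa7 differed least between classes, with pool means from 28.7 to 125 CPM and overlapping neighbours nearly throughout.

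Over 31 sums of classes and pools, Anxa1 and Anxa11 followed each other most closely among neutrophil-rich members (Pearson r of log2(CPM + 10) = 0.837), and Anxa4 and Anxa5 had r = 0.857. Anxa1 and Anxa2 had r = 0.637, and Anxa6 ran against Anxa11 (-0.574) and Anxa1 (-0.53). Of 5905 genes compared, those most like Anxa1 were Rgs19 (0.903), G6pdx (0.9) and Glrx (0.899), and Capn1 (0.947) and Msra (0.931) were most like Anxa11. Those most like Anxa2 were Bst1 (0.828), Chp1 (0.81) and Atp6v1g1 (0.809), and those most like Anxa3 were Peli2 (0.816), Dstn (0.813) and Golim4 (0.81). Anxa4 was most like Fam129b (0.915), Hsd17b4 (0.914) and Akr1a1 (0.901), and Anxa5 most like Cmtm3 (0.891), Pros1 (0.889) and Akr1a1 (0.888). For Anxa6 the closest were Psmb8 (0.839), Crip1 (0.838) and Itgb7 (0.832), and for Anxa7 Atp5h (0.742), Uqcrb (0.731) and Sec13 (0.731). Sums of a pool share 1 library and classes share cell types, so these values describe and carry no test.

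The partner genes moved with their own pattern. S100a10, the usual partner of Anxa2, had 493 and 514 CPM in alveolar macrophages, against 10.5 and 5.06 CPM in mature cells, where Anxa2 had 2073 and 1661 CPM. S100a11, an S100 partner of Anxa1, had 10700 and 10600 CPM in mature cells, against 6552 and 6294 CPM in Ltf-high cells. Of the 16 partner genes, 6 rose and 5 fell in mature relative to Ltf-high cells by the same fit, beside 25.2% and 15.3% of all genes, and 4 rose and 6 fell with all UMIs. The formyl peptide receptor Fpr2, a receptor for Anxa1, fell by 1.12 on the log2 scale (adjusted p = 0.0139), with 705 and 732 CPM in mature cells against 1570 and 2200 CPM in Ltf-high cells. Fpr1 did not pass (0.25, adjusted p = 0.629). Tsc22d3, a glucocorticoid-induced gene, rose by 2.80 (1.98e-08), with 952 and 850 CPM in mature cells against 138 and 169 CPM, and Nr3c1, the glucocorticoid receptor, by 1.41 (7.03e-05). The scramblase gene Plscr1 fell by 2.10 (6.51e-06).

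In activated cells relative to mature cells 2 partner genes were higher and 7 lower by edgeR, beside 7.91% and 15.9% of all genes, and with all UMIs 3 were higher and 5 lower. S100a11 had 5057 and 3226 CPM in activated cells of YO1 and YO2, against 10700 and 10600 CPM in mature cells (log2 change -2.25, adjusted p = 6.12e-05). Tsc22d3 had 350 and 284 CPM in activated cells, against 952 and 850 CPM (-2.32, 8.77e-06), and Fpr1 changed by -2.24 (0.000985). S100a10 had 315 and 19.0 CPM in activated cells, from 18 and 20 UMIs, against 10.5 and 5.06 CPM (2.31, 0.0203), so that its rise was far larger in the 28 cells of YO1, where the dendritic cell markers stood at 490 CPM; dendritic cells had 375 and 324 CPM of S100a10, and their part was not tested. Relative to cycling cells, Ltf-high cells had 7 partner genes higher, with Fpr1 at 3.25 (adjusted p = 2.14e-06) and Fpr2 at 2.05 (0.000128), and 2 lower, beside 18.1% and 17% of all genes; with all UMIs 4 were higher and 2 lower.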

How the data were processed

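The authors deposited 1 table of raw UMI counts per gene and cell for both pools, aligned to mm10 per the submitters' processing notes; the sources used here name no aligner or annotation. Tag libraries and the library titled unidentified were not analysed here, and 0 columns of the table were left unused. The 8 genes and all lists were chosen with earlier results of these data known. Cells were filtered and gated by marker UMIs as described, with lineages called from at least 3 UMIs of at least 2 of their markers, and raw counts were summed per class and pool. edgeR 4.0.16 in R 4.3.3 fitted the sums after filterByExpr and TMM scaling, without the 108 genes used for gating, and calls were made at an adjusted p of 0.05.

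Classes needed 30 cells in each pool (14 classes, 28 sums, 13 residual degrees of freedom). Because YO2 held 27 Ngp-positive Ltf-low cells and YO1 28 activated cells, a second fit with a minimum of 20 cells (16 classes, 32 sums, 15 degrees of freedom) gave their contrasts; this choice, and the contrast of mature with Ltf-high cells, came after the cell counts were seen. The pool was a block because all sums of a pool come from the same cartridge and library. Sums of a class are 2 libraries, and their spread may be technical. Counting intervals are exact at 95% and cover counting error only, and the limit for 0 UMIs is 3 counts.

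The genes named are the 8 annexins, 16 partner genes fixed as a list, and for each annexin the 3 genes most correlated with it among those averaging at least 20 CPM; 1 of these is not reported here. Alternatives were scaling by the total UMIs of the genes fitted, DESeq2 1.42.0, no filter, no block, other cell filters and gates, and each sum left out. Another was limma 3.58.1 on log2 of the mean CPM over cells plus 1. The fitting code was tested on simulated data. Python 3.11.15 with numpy 2.4.6, scipy 1.17.1 and pandas 2.3.3 did the sums, and matplotlib 3.10.9 the figures. Protein sequences were not used here.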

Additional observations from a re-analysis of the deposited data

Results flagged for a closer look

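Other annexin rows of the table, which no comparison used, also held UMIs. Anxa8 had 52 UMIs in kept cells, of which 9 in YO1 and 23 in YO2 lay in the few cells with epithelial markers, at 362 and 99.8 CPM. Anxa9 had 88 UMIs, seen in 11 of 21 classes and in cells of no class, with 10 and 14 in mature cells of YO1 and YO2. Anxa11os, an antisense gene that lies within Anxa11 on the opposite strand (chromosome 14, 25856777 to 25870266, GRCm38), had 92 UMIs, with 31 and 27 in mature cells. Whether the counting used strand is not given in the sources used here, and without it reads of Anxa11 and Anxa11os cannot be told apart.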

How the results depend on the processing

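Of 3912 repeats of single annexin tests, 155 lost significance, 95 gained it and 8 changed sign with the gene called in the main or the repeated fit. The other 3654 counted as the same, including sign changes of genes called in neither fit. With all UMIs 1 annexin passed in Ltf-high against cycling cells and 5 in mature against Ngp-positive Ltf-low cells, where DESeq2 also called 5. Tests on mean CPM per cell with limma called 1 in Ltf-high against cycling cells, 4 in mature against Ltf-high cells, 1 in activated against mature cells and 0 in Ngp-positive Ltf-low against Ltf-high cells, where 3 had an unadjusted p under 0.05. Cells of 1000 to 3000 UMIs gave 4 calls in mature against Ltf-high cells and 40 of 56 in the lineages. The stricter lineage gate gave 7 calls in activated cells. Without the dendritic cell class 1 annexin passed in Ngp-positive Ltf-low against Ltf-high cells and 5 in mature against Ngp-positive Ltf-low cells. The cause of these shifts was not tested.

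Leaving out each sum in turn gave 3 to 6 calls in Ltf-high against cycling cells, 4 to 7 in mature against Ltf-high cells, 1 to 3 in Ngp-positive Ltf-low against Ltf-high cells, 0 to 3 in mature against Ngp-positive Ltf-low cells, 3 to 4 in activated cells and 55 to 67 in the lineages. A lone remaining sum is assumed to vary like the other classes. Without the replicate block, that is the pool that pairs the sums, 6 annexins passed in Ltf-high against cycling cells, 5 in mature against Ltf-high cells, 1 in Ngp-positive Ltf-low against Ltf-high cells, 2 in mature against Ngp-positive Ltf-low cells, 4 in activated cells and 61 in the lineages.

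With the gene called in the main or the repeated fit, signs changed in these cases. Anxa6 in Ltf-high against cycling cells had a log2 change of -1.42 without the YO1 cycling sum, and 1.49 without the YO2 sum. Anxa5 in B cells had 1.07 with all UMIs and 0.71 with DESeq2. Anxa2 in alveolar macrophages had 0.12 with all UMIs and 0.19 with limma. Anxa6 in endothelial cells had 0.32 with limma. Anxa7 in endothelial cells had -0.22 without the YO1 sum, and 0.90 without the YO2 sum. Anxa5 in mature against Ngp-positive Ltf-low cells had 0.014 without the YO1 Ngp-positive Ltf-low sum, and -1.48 without the YO2 sum. Sign changes of genes called in neither fit are not listed. An example is Anxa6 in Ltf-high against cycling cells, at -0.43 with all UMIs and -0.64 with DESeq2.

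The Anxa1 share of cycling cells, 71.1% as the mean of the pools, was 45.1% (SD 32.4 between the pools) in cells of 1000 to 3000 UMIs, 73.4% in cells with granule UMIs, 69.1% in cells up to 6000 UMIs and 67.9% with the stricter lineage gate. Their Anxa2 share of 12.8% was 31.4% (SD 21.6), 11.6%, 14.9% and 14.5% in the same settings. In cells of 1000 to 3000 UMIs the Anxa1 share was 48.4% in Ngp-positive Ltf-low cells, against 46.8% in all, and 17.6% in activated cells, against 15.7%; activated cells with at least 2% of S100a8 and S100a9 had 24.2%. Cells of 1000 to 3000 UMIs could not be fitted for the stage contrasts other than mature against Ltf-high cells, cells up to 6000 UMIs for cycling cells, or the S100 limit for activated cells, because too few cells remained. Leaving out each other class was not run for contrasts fitted with at least 30 cells.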
